A study of Mus musculus with 12 samples.

Results

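The response of mouse osteoclasts to lipopolysaccharide (LPS) was followed across all expressed genes. Osteoclasts were obtained from the bone marrow of wild-type mice, from femurs and tibiae, by culture in CMG medium, used as the source of M-CSF, with RANKL at 100 ng/ml. On day 5 they were left untreated or received LPS at 100 ng/ml for 3 h, and RNA from 3 samples of each kind was sequenced. Bone-marrow macrophages, kept without RANKL, were treated in the same way in 3 and 3 further samples. They are used here as the other arm of the comparison between cell types. FPKM scales the fragments of a gene by transcript length and by a factor per library. Genes entered the analysis when they reached at least 1 FPKM in 3 or more of the 12 libraries, which 11335 of the 54532 genes in the table did. Of these, 9883 reached 1 FPKM in 3 or more osteoclast libraries. Another 1054 stayed under 1 FPKM in every osteoclast library and entered through the macrophage libraries, and 109 of those were nevertheless called. The labels do not say whether the 3 samples of a group came from separate mice or cultures, so the p-values measure the spread between these samples, which may be technical.

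LPS, a component of the outer membrane of Gram-negative bacteria, is handed by CD14 to the receptor TLR4 with its partner MD-2. One signalling branch runs through MyD88 to the kinase TAK1, NF-κB and the MAP kinases, and switches on cytokines, chemokines and their own inhibitors. The other runs through TRIF to TBK1 and IRF3, which switch on interferon-β, and interferon then acts through JAK kinases and STAT factors on antiviral genes. Osteoclasts are multinucleated cells of the macrophage lineage that dissolve bone with acid and the protease cathepsin K. RANKL, acting through RANK, TRAF6, NF-κB, c-Fos and NFATc1, drives their formation.

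The osteoclast libraries carried their label. The 11 osteoclast markers summed to between 29376 and 32390 FPKM in the 6 osteoclast libraries and to 29.2 FPKM or less in every macrophage library. The 15 macrophage markers summed to 565 to 571 FPKM in untreated and to 554 to 623 FPKM in LPS-treated osteoclasts, against 5540 to 6940 FPKM in macrophages. Adgre1 and Fcgr1 among them were called higher, by 0.85 and 0.79. Csf1r, the M-CSF receptor, made up over 285 FPKM of each osteoclast sum. Cx3cr1, Fcrls, Hpgd, F13a1 and Cd163 stayed under 1 FPKM in all 6 osteoclast libraries, while Fcrls averaged 246 FPKM in untreated macrophages. The mannose receptor Mrc1 stood in LPS-treated osteoclasts at 0.814% of its level in LPS-treated macrophages, and the complement genes C1qa, C1qb and C1qc at 3.25%, 3.38% and 3.29%. Across the 15 markers this share ran from 0.0284% (F13a1) to 69.7% (Csf1r). Adgre1, Ms4a7, Mertk and Gas6 stood at 9.28%, 7.21%, 7.01% and 23.2%. All markers of B cells, stromal cells, erythroid cells and mast cells stayed under 1 FPKM in all 6. Of the 10 neutrophil markers only S100a8 passed 1 FPKM, at 1.53 FPKM in LPS-treated replicate 1. The 7 dendritic cell markers summed to 0.661 to 0.710 FPKM in untreated and 1.42 to 1.84 FPKM in LPS-treated osteoclasts. Most of this was Zbtb46, at 0.536 to 0.560 FPKM without and 0.873 to 1.21 FPKM with LPS, which was too low to be tested. Xcr1 was called higher (log2 difference 0.31, SE 0.07, adjusted p 0.00956) but reached only 0.283 to 0.379 FPKM. It entered through LPS-treated macrophages, at a mean of 5.31 FPKM. The 6 endothelial markers summed to 2.30 to 2.90 FPKM and 2.89 to 3.46 FPKM, and Kdr, a VEGF receptor gene, was called higher (log2 difference 0.75, SE 0.11, adjusted p 5.75e-04). The others did not rise with it. Vwf, the most abundant, went from 2.13 to 2.51 FPKM without to 1.69 to 2.41 FPKM with LPS and was not called. Cdh5 was not called either, and Tek and Emcn were at 0 in all 6 libraries. The part of such cells in the results was not tested. Of the T-cell markers, only Trac passed 1 FPKM, at 3.73 to 3.96 FPKM in untreated and 2.92 to 3.40 FPKM in LPS-treated osteoclasts, and it was called lower (log2 difference -0.23, SE 0.07, adjusted p 0.0389). Between 15651770 and 20281456 reads were assigned to genes per osteoclast library, and 1 read on a 1-kb transcript was worth 0.0505 to 0.0649 FPKM. Mitochondrial genes took 5.16% to 6.18% of the reads in all 6.

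LPS changed 2008 genes in osteoclasts at an adjusted p under 0.05, which is 17.7% of the genes tested. The test was limma on log2(FPKM + 1) with Benjamini-Hochberg adjustment over all genes, so a log2 difference understates the change of low genes. The calls were unequal in size. Higher calls numbered 1261 (11.1% of the genes tested), and 242 of them (2.13%) rose by at least 1 on the log2 scale. Lower calls numbered 747 (6.59%), and 19 of them (0.168%) fell by at least 1. The number past a difference of 1 depends on how low values are treated: with a pseudocount of 0.1 it was 419 higher and 79 lower, and with voom on recovered reads 448 and 101. Rescaling to equal totals gave 53 lower. The median difference of all genes tested was 0.01. Higher calls made up 62.8% of all calls with the values as deposited, but 43.5% when each library was rescaled to the same total and 38.5% after quantile normalization. These scalings moved the median difference to -0.06 and -0.05, so a small difference can change its call or its sign with the scaling. Among the genes named here that were not called, Csf1r, Cx3cr1, Ifnar1, Irf8 and Tgfb1 were called lower on both of these scales, Cd86 was called higher after rescaling to equal totals (adjusted p 0.0441) and Gas6 and Ikbkg were called lower after quantile normalization (adjusted p 0.0371 and 0.0197). Calls of Actg1, Atp6v0e, B2m, Nfatc1, Pdgfb and Tfrc were lost on both, those of Mir7213, Pfkl and Trac after rescaling to equal totals, and those of Actb and H2-K1 after quantile normalization. Of the 242 genes that rose by at least 1, 119 were under 1 FPKM in all 3 untreated libraries and 17 averaged 10 FPKM or more there. The groups did not overlap for 34.0% of all genes tested. The counts of a gene list are followed by its percent called higher and lower, which stand against 11.1% and 6.59% over all genes.

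**Figure D1:**
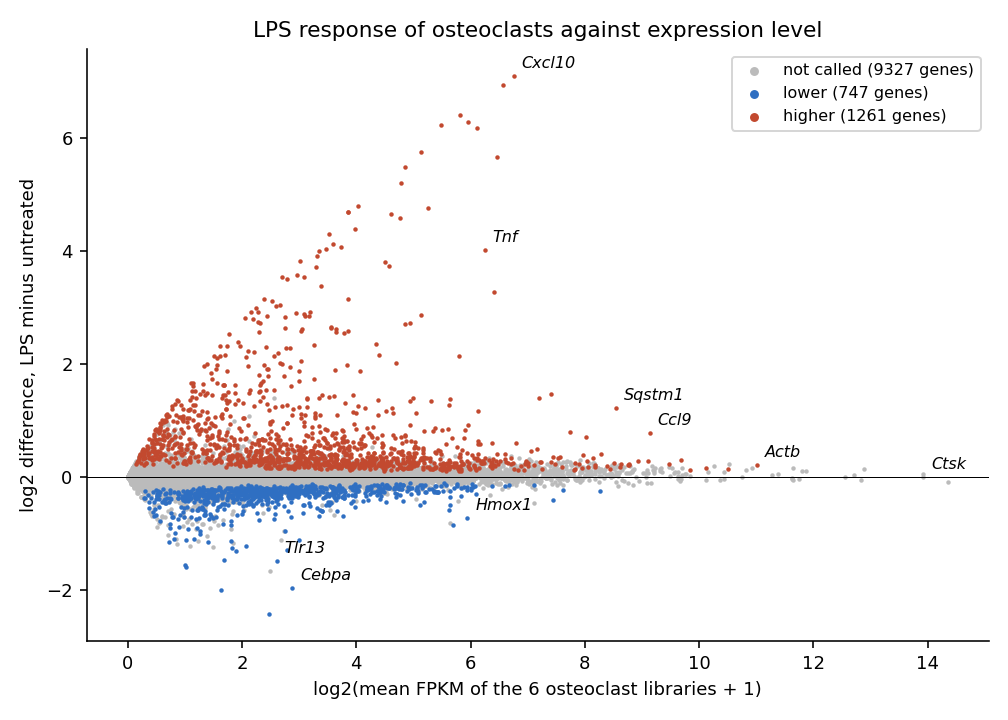
Log2 difference between LPS-treated and untreated osteoclasts (vertical axis) against the log2 of the mean FPKM plus 1 over the 6 osteoclast libraries (horizontal axis), 1 point per gene tested. Red points are the 1261 genes called higher, blue points the 747 called lower and grey points the rest; the upper arm reaches 7.11 (Cxcl10), while Ctsk, among the most abundant RNAs, sits at 0.

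Among the 3 LPS-treated osteoclast libraries, replicate 2 stood apart. It held the lowest of the 3 values for 215 of the 242 genes that rose by at least 1. Its median level over those genes was 0.74 of the group mean, against 1.07 in replicate 1 and 1.17 in replicate 3. It was also the lowest for 7 of the 9 macrophage markers above 1 FPKM and the highest for the other two, Csf1r and Gas6. Their medians were 1.18, 0.76 and 1.12 of the group mean in replicates 1, 2 and 3, whereas the 11 osteoclast markers stood at 0.99, 1.05 and 0.97. Adgre1, which encodes the macrophage antigen F4/80, gave 37, 31.2 and 31.3 FPKM without LPS and 73.1, 42.5 and 70.9 FPKM with it. C1qb gave 67.8, 57.9 and 59.5 FPKM and 87.9, 51 and 82.7 FPKM. Among the 17 raised genes that already averaged 10 FPKM in untreated osteoclasts, the medians of the 3 libraries lay closer, at 1.10, 0.88 and 1.03. The part of macrophages remaining in the cultures in the rises reported here was not tested. Fewer responding cells and less RNA per cell cannot be told apart in bulk samples. Without replicate 2, 2031 genes were called, 1295 of them higher. Of the 2008 genes called with all 3, 1668 were still called, and 8 of the genes named here or in the closing section lost their call. The macrophage genes C1qa, C1qb, C1qc and Mrc1, which were not called with all 3, were then called higher, by 0.46, 0.46, 0.36 and 0.29, as were Bst2 and Mki67 by 0.54 and 0.53.

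**Figure D2:**
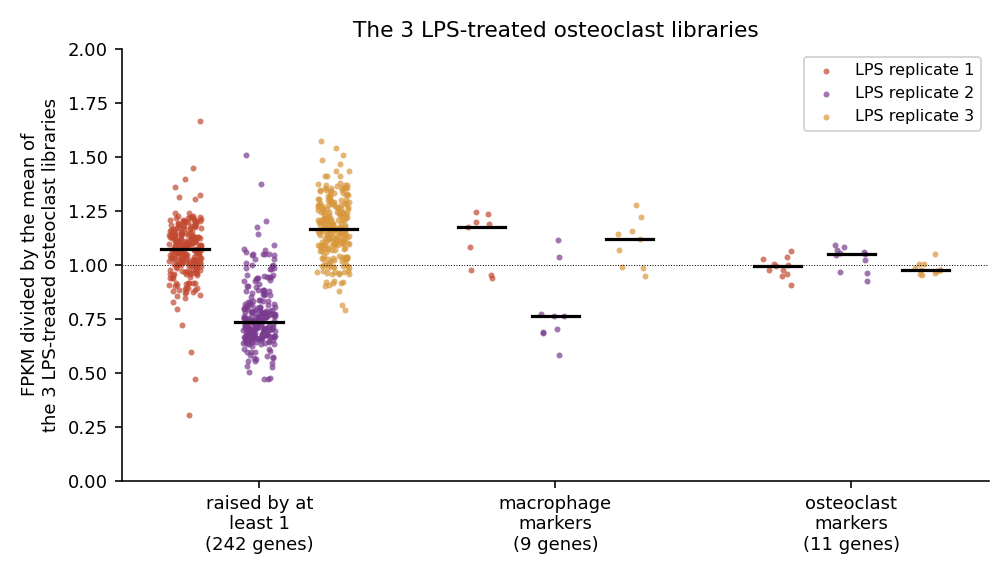
Level of each gene in the 3 LPS-treated osteoclast libraries divided by the mean of the 3 (vertical axis), for the 242 genes raised by at least 1, the 9 macrophage markers above 1 FPKM and the 11 osteoclast markers; points are genes and bars are medians. Replicate 2 lies low in the first and second sets, at medians of 0.74 and 0.76, and at 1.05 in the third.

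The largest rises were in chemokines, interferon-stimulated genes and the itaconate enzyme. Cxcl10 (ENSMUSG00000034855, chromosome 5, 92346638 to 92348889), a chemokine that attracts T cells, gave 0.529, 0.236 and 0.784 FPKM in untreated and 239.8, 141 and 260.1 FPKM in LPS-treated osteoclasts (log2 difference 7.11, SE 0.22, adjusted p 1.57e-09). Acod1 (ENSMUSG00000022126, chromosome 14, 103046977 to 103056573), the enzyme that makes itaconate from a Krebs-cycle intermediate, went from 0.351, 0.429 and 0.695 FPKM to 213, 133 and 215 FPKM (log2 difference 6.95, SE 0.15, adjusted p 1.79e-10). In both genes every LPS-treated library lay far above every untreated one, and replicate 2 was the lowest of the treated. Rsad2 (ENSMUSG00000020641, chromosome 12, 26442746 to 26456452) encodes the antiviral enzyme viperin, and its levels were 0.337, 0.191 and 0.258 FPKM and 113, 74.3 and 143 FPKM (log2 difference 6.41, SE 0.17, adjusted p 6.35e-10). The 20 genes with the highest differences also held Ifit1 (6.30), Ccl5 (6.23), Ccl4 (6.19), Cxcl2 (5.75), Ccl3 (5.67), Cmpk2 (5.49), Ifit2 (5.21), the long non-coding RNA AW112010 (4.80), Isg15 (4.76), Mx1 (4.69), Cxcl1 (4.69), Ifit3 (4.66), Oasl1 (4.58), Cd40 (4.40), Cxcl3 (4.30), Gbp2 (4.14) and Ccl22 (4.07), all as log2 differences. The rule took only genes whose groups do not overlap. All 20 also rose in macrophages, by 4.56 (Ccl22) to 10.51 (Ccl5). The test of the difference between the cell types called the osteoclast rise smaller for all 20 with the values as deposited, and after rescaling to equal totals smaller for 17 and larger for 1.

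**Figure D3:**
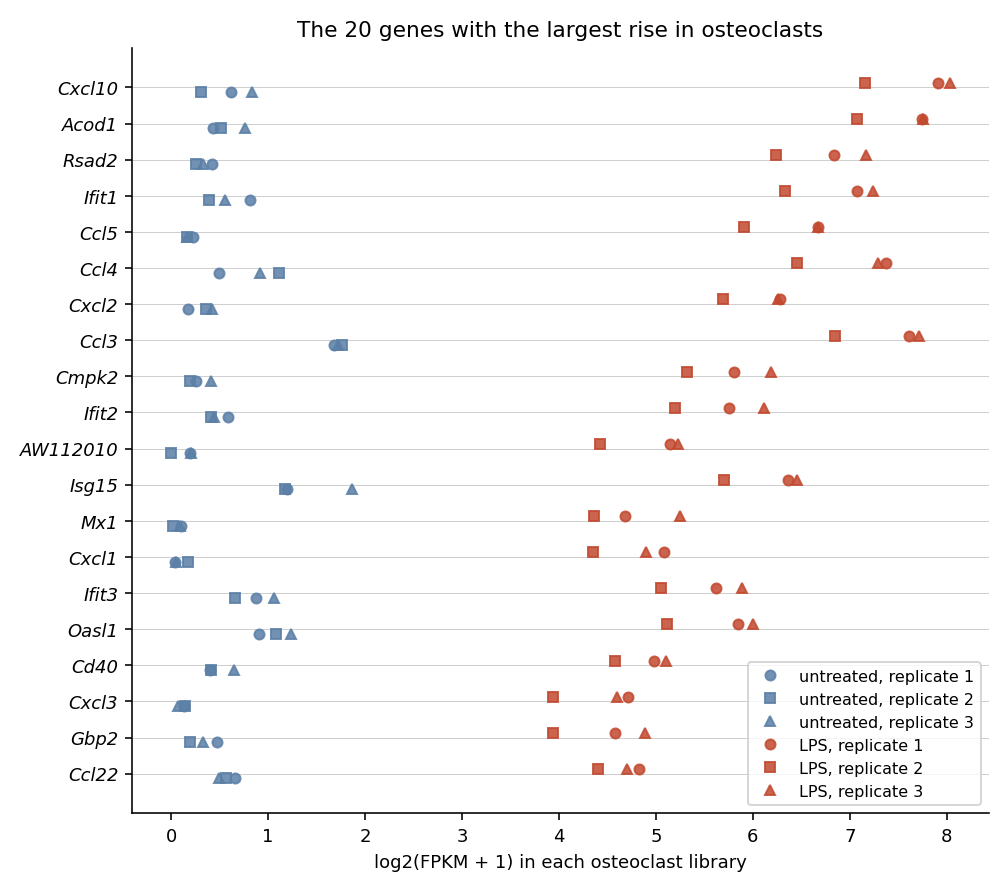
Log2(FPKM + 1) in each of the 6 osteoclast libraries (horizontal axis) for the 20 genes with the highest log2 difference (rows); blue symbols are untreated and red symbols LPS-treated libraries, with circles, squares and triangles for replicates 1, 2 and 3. The red symbols lie apart from the blue ones, as the rule for choosing these genes required, and the red square, replicate 2, is the leftmost of the red symbols in every row.

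Promoters of raised genes were searched for letters like those bound by the 2 branches of the pathway. RefSeq promoters (GRCm38.p6), 250 bases before to 50 bases after the start, were read for GGANNTTCC, which resembles NF-κB sites, and for GAAANNGAA, which resembles the sites of interferon-activated factors, both on either strand. The first was found for 4.86% of the 27025 genes with an entry and the second for 9.76%. Among the 8442 genes tested that had an entry these shares were 5.69% and 9.04%. Among the 242 genes that rose by at least 1, 182 had an entry, and 29 of them (15.9%) held the first and 56 (30.8%) the second. The interferon-stimulated genes that rose by at least 1 held the second in 18 of 28 promoters (64.3%) and the first in 5 (17.9%). The chemokines that did held the first in 5 of 9 (55.6%) and the second in 3 (33.3%). Of the 19 genes that fell by at least 1, 8 had an entry, of which 0 held the first and 1 the second. A match describes the letters and is not a measured binding site. The promoters of the most raised gene with both matches, with only the first and with only the second are shown here, 5′ to 3′ on the gene's strand, with the matching letters in capitals.
Cxcl10, minus strand of chr5:92348840-92349139: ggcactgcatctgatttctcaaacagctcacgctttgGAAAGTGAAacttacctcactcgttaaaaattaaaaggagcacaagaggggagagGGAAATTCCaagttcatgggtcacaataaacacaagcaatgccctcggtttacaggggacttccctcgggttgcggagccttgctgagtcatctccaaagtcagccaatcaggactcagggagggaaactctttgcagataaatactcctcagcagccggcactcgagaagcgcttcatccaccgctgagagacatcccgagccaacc
Acod1, plus strand of chr14:103046762-103047061: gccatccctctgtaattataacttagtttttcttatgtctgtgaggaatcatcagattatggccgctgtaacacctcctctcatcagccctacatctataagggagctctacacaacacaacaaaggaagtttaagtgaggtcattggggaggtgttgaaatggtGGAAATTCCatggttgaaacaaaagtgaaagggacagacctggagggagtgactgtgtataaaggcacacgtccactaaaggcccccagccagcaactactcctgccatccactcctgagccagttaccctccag
Rsad2, minus strand of chr12:26456403-26456702: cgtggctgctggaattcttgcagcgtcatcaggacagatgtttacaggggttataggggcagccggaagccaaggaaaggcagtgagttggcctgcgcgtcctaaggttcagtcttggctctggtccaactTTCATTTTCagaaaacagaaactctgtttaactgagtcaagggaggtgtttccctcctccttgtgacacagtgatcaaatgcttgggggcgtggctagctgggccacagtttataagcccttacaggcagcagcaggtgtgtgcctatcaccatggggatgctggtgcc
The second match of Cxcl10 begins at base 93 of the 300 and is of the NF-κB-like kind, as is that of Acod1 at base 166. The match of Cxcl10 at base 38 and that of Rsad2 at base 132 are of the interferon-like kind, and the one in Rsad2 reads on the opposite strand.

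Of 25 genes tested that receive LPS and pass its signal on, 8 rose (32%, against 11.1% of all genes) and 1 fell, with a median of 0.10. Cd14, the co-receptor, rose from 16.4, 16.5 and 15.8 FPKM to 54.6, 34.2 and 46.9 FPKM (log2 difference 1.40, SE 0.13, adjusted p 8.56e-06). Tlr4, the receptor, was the gene that fell, from 4.72, 3.93 and 4.49 FPKM to 2.42, 2.67 and 3.28 FPKM (log2 difference -0.51, SE 0.09, adjusted p 0.00147), and the groups did not overlap. Irak3, an inhibitory member of the IRAK family, rose by 1.21, the ubiquitin ligase Peli1 by 1.11, and the kinases Ikbke and Map3k8 by 1.08 and 1.08. Myd88, the main adapter, rose by 0.54, with a mean of 9.70 ± 0.783 FPKM without and 14.5 ± 0.408 FPKM with LPS (SD, n = 3). Ly96, which encodes MD-2, averaged 9.15 FPKM without and 9.65 FPKM with LPS and was not called. The TRIF adapter gene Ticam1 averaged 13.8 and 15.4 FPKM and was not called either. Tlr4 was at -0.50 in macrophages, and the 2 responses differed by -0.01 (SE 0.12, adjusted p 0.969).

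NF-κB genes rose together. The list held 23 subunits, inhibitors and regulators, of which 18 rose and 0 fell (78.3% and 0%), with a median of 0.66 against 0.01 over all genes. Nfkbiz, an inducible nuclear co-factor of NF-κB, rose most, from 0.184, 0.366 and 0.422 FPKM to 17.3, 10.5 and 16.1 FPKM (log2 difference 3.54, SE 0.14, adjusted p 7.32e-09). Tnfaip3, the deubiquitinase A20 that restrains the pathway, went from 18.9, 19.3 and 20.8 FPKM to 44.6, 43.6 and 44.7 FPKM (log2 difference 1.14, SE 0.04, adjusted p 3.28e-09). Replicate 2 was the lowest treated library for Nfkbiz, whereas the 3 treated libraries of Tnfaip3 lay close together. The inhibitor genes Bcl3, Nfkbie and Tnip1 rose by 1.23, 1.22 and 0.92. Nfkbia, which encodes the classical inhibitor IκBα, started at 209, 214 and 225 FPKM and reached 296, 286 and 268 FPKM, a rise of 0.39 (SE 0.04, adjusted p 4.13e-05), against 3.97 in macrophages. The subunit genes Relb, Nfkb2, Nfkb1, Rel and Rela rose by 0.89, 0.83, 0.78, 0.57 and 0.34. Nfkb2, the subunit of the alternative pathway, gave 43.3, 42.4 and 40.4 FPKM and then 74, 76.6 and 75.7 FPKM. The kinase genes Chuk, Ikbkb and Ikbkg were not called. The LPS difference was called lower than in macrophages for 22 of the 23 genes and higher for 1, Otulin, which was itself not called in osteoclasts. After rescaling to equal totals these counts were 18 and 2.

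Immediate-early factors and the phosphatases that end MAP kinase signals were mixed at 3 h. Of 34 immediate-early genes tested, 14 rose and 2 fell (41.2% and 5.88%). Gadd45b, a stress gene, rose from 6.85, 6.11 and 5.59 FPKM to 27, 22.9 and 26.2 FPKM (log2 difference 1.88, SE 0.08, adjusted p 1.47e-08), and the repressors Atf3 and Maff rose by 1.24 and 1.05. Fos, an AP-1 gene that osteoclasts need, held 101, 95.2 and 101 FPKM without and 101, 105 and 95.1 FPKM with LPS and was not called. Jun fell from 54.1, 60.3 and 57.4 FPKM to 35.9, 46.1 and 39.1 FPKM (log2 difference -0.50, SE 0.08, adjusted p 0.00108), while its relative Junb rose by 0.60. Klf2, a factor known to restrain inflammatory genes, fell by 0.69 on the log2 scale. Among 21 MAP kinase phosphatase and mRNA decay genes, 11 rose and 2 fell (52.4% and 9.52%). Zc3h12a, the RNase Regnase-1 that destroys cytokine mRNAs, went from 5.49, 5.61 and 5.94 FPKM to 35, 32.6 and 31.9 FPKM (log2 difference 2.36, SE 0.05, adjusted p 1.79e-10). Socs3 and Socs1, feedback inhibitors of JAK signalling, rose by 3.58 and 2.33. Dusp6, a phosphatase of ERK, fell from 11.5, 11.4 and 11.8 FPKM to 7.35, 6.13 and 6.89 FPKM (log2 difference -0.69, SE 0.07, adjusted p 2.13e-05). Dusp1, a phosphatase of p38 and JNK, averaged 5.17 and 4.63 FPKM and was not called, against a rise of 4.33 in macrophages (difference -4.47, SE 0.14, adjusted p 2.55e-10).

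Cytokine genes rose in 20 of the 29 tested and fell in 0 (69% and 0%), with a median of 0.83. Tnf was the most abundant that rose by at least 1, from 6.68, 7.51 and 8.83 FPKM to 159, 107 and 159 FPKM (log2 difference 4.03, SE 0.14, adjusted p 3.28e-09). Il27, a subunit of interleukin-27, reached 19.9, 13.4 and 21.2 FPKM from 0.318, 0.0580 and 0.173 FPKM (log2 difference 4.00, SE 0.16, adjusted p 7.86e-09). Interleukin-12 and -6 were induced from nothing measurable. Il12b had no read in any untreated library and 13.2, 7.49 and 12.3 FPKM with LPS, at least 386-fold higher against a floor of 3 reads over the 3 untreated libraries. Il6 likewise had no untreated read and reached 5.22, 3.45 and 5.91 FPKM, at least 209.5-fold higher. Ifnb1, interferon-β itself, had no untreated read and 0.539, 0.865 and 0.95 FPKM with LPS (log2 difference 0.83, SE 0.11, adjusted p 2.86e-04), at least 10.1-fold higher. Csf1, which encodes M-CSF, rose from 0.123, 0.359 and 0.189 FPKM to 4.83, 5.79 and 5.61 FPKM (log2 difference 2.39, SE 0.12, adjusted p 6.14e-08). Il15 rose by 1.87 and the death ligand Tnfsf10 by 1.35. Il1b, which encodes interleukin-1β, had 1 read in the 3 untreated libraries together and reached 5.40, 2.99 and 4.02 FPKM, a difference of 2.32 against 9.28 in macrophages. Il1rn, its receptor antagonist, was already at 15.9, 15.8 and 16.3 FPKM and reached 22.2, 21.2 and 22.2 FPKM (log2 difference 0.43, SE 0.08, adjusted p 0.00369). Il10, an anti-inflammatory cytokine, rose by 0.89 to a mean of 1.70 FPKM. Tnfsf11, which encodes RANKL, was listed at 0 in all 6 osteoclast libraries, and Tgfb1 was not called.

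Among the 29 cytokine genes tested, the LPS difference was called lower than in macrophages for 23 and higher for 3, Hbegf, Vegfa and Pdgfb. After rescaling to equal totals these counts were 19 and 6. The 3 are growth factor genes that rose in osteoclasts and did not rise in macrophages. Hbegf, a ligand of the EGF receptor, went from 8.65, 8.75 and 9.64 FPKM to 19.2, 22.8 and 20.8 FPKM (log2 difference 1.13, SE 0.11, adjusted p 1.43e-05), and its macrophage difference was -0.19 and not called (difference between the cell types 1.32, SE 0.15, adjusted p 1.28e-05). Vegfa, the vascular growth factor, went from 7.28, 6.88 and 7.72 FPKM to 11.5, 11.1 and 11.2 FPKM (log2 difference 0.56, SE 0.07, adjusted p 1.88e-04) and fell by 0.69 on the log2 scale in macrophages. Pdgfb, a growth factor for mesenchymal cells, was abundant at 106, 116 and 115 FPKM and rose to 133, 147 and 133 FPKM (log2 difference 0.29, SE 0.07, adjusted p 0.0153), against -0.31 in macrophages. The rise of Pdgfb was not called after rescaling to equal totals (adjusted p 0.0804). Replicate 2 was the highest treated library for Hbegf and Pdgfb, and for Vegfa the 3 lay close together. Hilpda, a lipid-droplet protein chosen after its values were seen, rose by 0.75 in osteoclasts and fell by 0.65 in macrophages (difference 1.40, SE 0.08, adjusted p 4.13e-08).

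Chemokine genes rose in 19 of 24 tested and fell in 0 (79.2% and 0%), with a median of 2.08. Ccl3, Ccl4 and Ccl5 reached the highest levels among the CC chemokines that rose by at least 4. Ccl3 went from 2.19, 2.39 and 2.30 FPKM to 195, 114 and 208 FPKM (log2 difference 5.67, SE 0.18, adjusted p 1.57e-09), Ccl4 from 0.410, 1.17 and 0.891 FPKM to 164, 86.6 and 155 FPKM, and Ccl5 from 0.169, 0.123 and 0.123 FPKM to 101, 58.9 and 101 FPKM. Those that draw monocytes through CCR2 rose as well, Ccl2 by 2.87, Ccl7 by 3.81 and Ccl12 by 3.04. Ccl2 was at 6.09, 7.64 and 8.32 FPKM before and 73, 42.6 and 67.5 FPKM after LPS. Neutrophil attractants that act on CXCR2 rose together: Cxcl1, Cxcl2 and Cxcl3 by 4.69, 5.75 and 4.30. Cxcl2 reached 76.8, 50.5 and 75.7 FPKM from 0.131, 0.286 and 0.341 FPKM. The other CXCR3 ligands Cxcl9 and Cxcl11 rose by 2.81 and 1.36. Ccl9, a chemokine that osteoclasts make in quantity, was far above the others before LPS, at 427, 399 and 411 FPKM, and rose to 762, 676 and 693 FPKM (log2 difference 0.78, SE 0.05, adjusted p 3.92e-07), a gain of 298 FPKM in the mean. Ccl6 and Ccl17 were not called. Ccl22 (4.07 in osteoclasts and 4.56 in macrophages) and Cxcl2 (5.75 and 6.61) came nearest to the macrophage difference among the chemokines that rose by at least 4.

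Interferon-stimulated antiviral genes gave the most uniform response. Of 57 tested, 56 rose, 0 fell (98.2% and 0%), and 38 rose by at least 1, with a median of 1.50. The same 56 against 0 was counted after rescaling to equal totals and after quantile normalization. Ifit1, a sensor of viral RNA caps, went from 0.755, 0.312 and 0.465 FPKM to 134, 79.4 and 150.0 FPKM (log2 difference 6.30, SE 0.19, adjusted p 1.23e-09). Isg15, a ubiquitin-like modifier, was higher beforehand, at 1.29, 1.25 and 2.65 FPKM, and reached 81.5, 51.1 and 86.5 FPKM. Mx1, an antiviral GTPase, rose from 0.0716, 0.0156 and 0.0622 FPKM to 24.6, 19.5 and 37 FPKM. The RNA sensors Ifih1 and Ddx58 rose by 2.90 and 1.78, and Usp18, which removes ISG15 and damps the interferon receptor, by 3.04. The oligoadenylate synthetases Oas1a, Oas2, Oas3 and Oas1g rose by 1.09, 1.29, 1.21 and 1.46. Slfn2, a schlafen gene, differed from most by its level, 81.5, 81.3 and 78.2 FPKM without and 228, 196 and 214 FPKM with LPS (log2 difference 1.39, SE 0.05, adjusted p 5.12e-09). Bst2, which tethers virions, averaged 38.3 ± 3.70 FPKM and 50.2 ± 9.65 FPKM (SD, n = 3) and was not called. All 56 that rose did so less than in macrophages by the test of the difference, with macrophage and osteoclast medians of 3.46 and 1.50. After rescaling to equal totals the rise was called smaller for 49 of the 57.

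Guanylate-binding proteins and immunity-related GTPases, which attack membranes around intracellular microbes, rose in 15 of 16 tested and fell in 0 (93.8% and 0%), with a median of 2.06. Gbp2 went from 0.388, 0.141 and 0.257 FPKM to 22.9, 14.4 and 28.6 FPKM (log2 difference 4.14, SE 0.18, adjusted p 2.13e-08) and Gbp5 from 0.139, 0.267 and 0.310 FPKM to 21.3, 13.9 and 24.4 FPKM (log2 difference 4.04, SE 0.15, adjusted p 4.50e-09). Among the immunity-related GTPases, Irgm1, Irgm2 and Igtp rose by 2.33, 2.92 and 2.85, and Iigp1 by 2.01, against 7.24 in macrophages. Their regulators moved with them in part. Of 21 interferon regulatory factors, JAKs and STATs tested, 11 rose and 0 fell (52.4% and 0%), and after rescaling to equal totals 9 rose and 2 fell. Irf1, a factor that interferon and NF-κB both induce, went from 2.96, 2.35 and 2.49 FPKM to 22.4, 16.2 and 23.1 FPKM (log2 difference 2.57, SE 0.11, adjusted p 1.61e-08). Irf7, which amplifies interferon production, rose by 2.14, Irf9 and Stat2 by 1.54 and 1.26, and the kinase gene Jak2 from 4.18, 3.79 and 4.37 FPKM to 20.8, 13.1 and 21.5 FPKM (log2 difference 1.90, SE 0.14, adjusted p 1.33e-06). Irf3, the factor downstream of TBK1, was not called, at means of 7.33 and 7.24 FPKM, nor was the interferon receptor gene Ifnar1.

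Receptors for microbial molecules rose in 15 of 26 tested and fell in 1 (57.7% and 3.85%), with a median of 0.48. Clec4e, which encodes the receptor Mincle for mycobacterial glycolipids, went from 2.50, 1.98 and 2.16 FPKM to 51.2, 28.7 and 49.7 FPKM (log2 difference 3.74, SE 0.17, adjusted p 2.79e-08). Tlr2, the receptor for bacterial lipopeptides, went from 9.71, 8.70 and 8.80 FPKM to 49.2, 29 and 44.9 FPKM (log2 difference 2.03, SE 0.14, adjusted p 1.03e-06), and its partner Tlr1 rose by 1.41. The formyl peptide receptors Fpr1 and Fpr2 and the peptidoglycan sensors Nod1 and Nod2 rose by between 1.21 and 2.32. Tlr13, a receptor for bacterial ribosomal RNA, was the one that fell, from 9.11, 7.0 and 7.76 FPKM to 2.78, 1.57 and 2.27 FPKM (log2 difference -1.49, SE 0.13, adjusted p 6.58e-06), with no overlap. The scavenger receptor gene Marco rose by 1.25 in osteoclasts and 1.47 in macrophages, a difference of -0.22 that was not called (SE 0.18, adjusted p 0.337).

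Inflammasome and cell-death genes rose in 10 of 24 tested and fell in 1 (41.7% and 4.17%). Nlrp3, the sensor of the canonical inflammasome, went from 0.895, 0.642 and 0.827 FPKM to 21, 13.9 and 19 FPKM (log2 difference 3.39, SE 0.12, adjusted p 3.28e-09). Its rise in macrophages was 2.98, and the difference of 0.41 (SE 0.17, adjusted p 0.0558) was not called. Ripk2, the kinase of the NOD receptors, rose by 1.74, and the inflammatory caspase genes Casp4 and Casp1 by 0.74 and 0.53. P2rx7, the ATP-gated channel that triggers NLRP3, fell by 0.33 on the log2 scale. Gsdmd, the pore former of pyroptosis, was not called, at means of 38.1 and 41.8 FPKM. Among 24 survival genes, 9 rose and 1 fell (37.5% and 4.17%, against 11.1% and 6.59% of all genes). The BCL2 relatives Bcl2a1d, Bcl2a1a and Bcl2a1b rose by 2.63, 1.37 and 1.15, but these copies are nearly identical and the division of reads between them is uncertain. Pim1, a survival kinase, went from 1.03, 1.17 and 1.34 FPKM to 8.94, 6.93 and 11.6 FPKM (log2 difference 2.20, SE 0.13, adjusted p 1.50e-07), and the apoptosis inhibitors Birc3 and Cflar rose by 0.92 and 0.85. Bcl2l1, which encodes BCL-xL, fell from 3.70, 4.49 and 3.73 FPKM to 2.98, 2.73 and 2.25 FPKM (log2 difference -0.45, SE 0.10, adjusted p 0.00977), and Mcl1, at means of 233 and 245 FPKM, was not called.

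Genes by which a cell is seen by T cells rose in 27 of the 37 adhesion, costimulation and antigen presentation genes tested, and 0 fell (73% and 0%), with a median of 0.47. Cd40, the receptor of a T-cell helper signal, went from 0.318, 0.330 and 0.570 FPKM to 30.5, 22.8 and 33.5 FPKM (log2 difference 4.40, SE 0.11, adjusted p 5.93e-10). Icam1, a ligand of leukocyte integrins, went from 6.66, 6.66 and 7.64 FPKM to 57.7, 44.9 and 53.5 FPKM (log2 difference 2.73, SE 0.08, adjusted p 1.00e-09). Cd274, which encodes the inhibitory ligand PD-L1, reached 24.3, 17 and 30.2 FPKM from 2.69, 3.27 and 3.23 FPKM (log2 difference 2.58, SE 0.15, adjusted p 2.27e-07). Cd83 and Slamf7 rose by 2.17 and 2.21, and the peptide transporter gene Tap1 by 1.13. Cd80, a costimulatory ligand, rose by 0.43, while its relative Cd86 was not called. H2-M2, a non-classical class I gene, went from 1.89, 2.29 and 1.48 FPKM to 11.7, 6.90 and 12.5 FPKM (log2 difference 1.95, SE 0.20, adjusted p 3.10e-05), and its rise of 1.92 in macrophages differed from this by 0.03 (SE 0.29, adjusted p 0.948). H2-K1 and B2m, abundant class I components, rose by 0.27 and 0.24. The call of B2m was lost after rescaling to equal totals (adjusted p 0.0610) and that of H2-K1 after quantile normalization (adjusted p 0.0599). The class II gene H2-Ab1 was low, averaging 0.373 and 0.323 FPKM, and was not called.

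Small-molecule mediators and fuel use were followed in 35 genes, of which 15 rose and 1 fell (42.9% and 2.86%), with a median of 0.13. Beside Acod1, the inducible prostaglandin synthase Ptgs2 went from 0.0118, 0.0258 and 0.0385 FPKM to 15.1, 9.06 and 18.2 FPKM (log2 difference 3.83, SE 0.17, adjusted p 2.49e-08). Nos2, which makes nitric oxide, went from 0.0246, 0.0536 and 0.0133 FPKM to 8.08, 5.93 and 11.1 FPKM (log2 difference 3.15, SE 0.17, adjusted p 9.50e-08). The arginine transporter gene Slc7a2 rose by 2.74, the hexose transporter gene Slc2a6 by 2.58, and the prostaglandin E synthase gene Ptges by 1.88. Replicate 2 was the lowest treated library for Ptgs2 and Nos2. Pfkfb3, which makes an activator of glycolysis, and the hexokinase gene Hk2 rose by 0.96 and 0.74. Pfkl, a phosphofructokinase, rose by 0.21, while other abundant enzymes of glycolysis were not called: Aldoa averaged 791 and 801 FPKM, Pkm 351 and 352 FPKM, and Ldha 263 and 280.5 FPKM. Ptgs1, the constitutive prostaglandin synthase, fell by 0.39 on the log2 scale.

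Redox and metal genes split. Of 35 tested, 10 rose and 6 fell (28.6% and 17.1%). Saa3, an acute-phase protein, went from 0.0208, 0.0227 and 0.0452 FPKM to 8.99, 5.0 and 8.28 FPKM (log2 difference 3.00, SE 0.19, adjusted p 4.02e-07). Slc7a11, the cystine importer and also an NRF2 target, rose by 1.74, and Cybb, the catalytic subunit of the phagocyte oxidase, went from 18.3, 14.2 and 15.1 FPKM to 50.9, 28.7 and 50.2 FPKM (log2 difference 1.35, SE 0.17, adjusted p 1.68e-04). Hmox1, which degrades haem and is a target of NRF2, fell from 79.5, 70.8 and 75.6 FPKM to 51.2, 37.8 and 48 FPKM (log2 difference -0.72, SE 0.10, adjusted p 2.36e-04), and by 0.70 in macrophages. Among other genes known as NRF2 targets, the glutathione synthesis genes Gclm and Gclc fell by 0.44 and 0.29 and Osgin1 by 0.49 on the log2 scale. Txnrd1 and Sqstm1, also NRF2 targets, rose by 0.24 and 1.22, and Nqo1 and Srxn1 were not called. Slc40a1, the iron exporter ferroportin, fell by 0.63 from a mean of 1.06 FPKM. The iron uptake receptor gene Tfrc was among the most abundant RNAs of the list at 1058 ± 8.71 FPKM and rose by 0.15 with the values as deposited (adjusted p 0.0297) but was not called after rescaling to equal totals (adjusted p 0.221).

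Of 29 cholesterol genes tested, 7 rose (24.1%, against 11.1% of all genes) and 0 fell, and after rescaling to equal totals 3 rose. Insig1, which restrains cholesterol synthesis, went from 44.5, 48.5 and 48.3 FPKM to 63.7, 71.4 and 62.2 FPKM (log2 difference 0.47, SE 0.06, adjusted p 1.05e-04) and fell by 0.49 in macrophages. The fatty acid enzymes Scd2 and Fasn, which fell in macrophages by 2.65 and 1.43, were not called in osteoclasts. Of 36 mitosis and replication genes, 0 rose and 3 fell (8.33%, against 6.59% of all genes). The 3 were Aurka, Cdt1 and Tpx2, at -0.36, -0.31 and -0.16, and each call was lost when 1 or another osteoclast library was left out. Mki67, a proliferation marker, averaged 2.71 and 3.65 FPKM and was not called.

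Osteoclast genes were called in both directions, each by less than 1 on the log2 scale. Of 41 tested, 8 rose (19.5%, against 11.1% of all genes) and 4 fell (9.76%, against 6.59%), with a median of 0.01. After rescaling to equal totals 5 rose and 4 fell, and after quantile normalization 5 rose and 9 fell. Ctsk, which encodes cathepsin K, held 15204, 15864 and 15556 FPKM without and 15534, 16279 and 14763 FPKM with LPS, overlapping groups with a difference of -0.0024 (SE 0.23). Acp5, the tartrate-resistant phosphatase, held 5773, 6132 and 6059.8 FPKM and 5852, 6425 and 5748 FPKM, and Mmp9, the gelatinase, averaged 7459.9 and 7226 FPKM. The fusion genes Dcstamp and Ocstamp differed by -0.0046 and 0.13 and were not called. Nfatc1, the master factor of the lineage, was higher in each treated library, 128, 141 and 132 FPKM against 114, 114 and 114 FPKM (log2 difference 0.23, SE 0.04, adjusted p 0.00148), whereas it fell by 0.51 in macrophages. After rescaling to equal totals the difference of Nfatc1 was 0.16 and was not called (adjusted p 0.0551). Calcr, the calcitonin receptor, went from 20.7, 20.4 and 22.4 FPKM to 27.8, 25 and 28.3 FPKM (log2 difference 0.34, SE 0.06, adjusted p 0.00123). Car2, the carbonic anhydrase that supplies protons, rose from 119, 114 and 119 FPKM to 174, 168 and 158 FPKM (log2 difference 0.50, SE 0.06, adjusted p 5.29e-05; adjusted p 0.0567 with a pseudocount of 0.1), and the metalloreductase gene Steap4 by 0.86. Tnfrsf11a, which encodes RANK, was lower, 47.9, 52.2 and 51.8 FPKM against 55, 55.6 and 58.5 FPKM (log2 difference -0.15, SE 0.05, adjusted p 0.0389), and rose by 0.78 in macrophages. The call of Tnfrsf11a was lost when any 1 untreated osteoclast library was left out (adjusted p 0.0577 to 0.147). Plekhm1, needed for lysosome traffic to the bone surface, and Sirpa, a receptor with a part in fusion, fell by 0.22 and 0.23 on the log2 scale. Of 18 subunits and accessory proteins of the proton pump tested, 1 rose and 0 fell (5.56% and 0%, against 11.1% and 6.59% of all genes). The riser, Atp6v0e, did so by 0.15, a call lost after rescaling to equal totals (adjusted p 0.211), and the osteoclast subunit gene Atp6v0d2 differed by -0.02.

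Of 19 tested genes from a list of factors said to oppose osteoclast formation, 3 rose and 5 fell (15.8% and 26.3%, against 11.1% and 6.59% of all genes), with a median of -0.05. Cebpa, a myeloid factor that is also known to be needed for osteoclast formation, went from 11.6, 10.2 and 10.4 FPKM to 2.07, 1.72 and 2.20 FPKM (log2 difference -1.97, SE 0.09, adjusted p 2.01e-08). Id1, an inhibitor of basic helix-loop-helix factors, went from 2.20, 1.73 and 2.08 FPKM to 1 read over the 3 treated libraries (log2 difference -1.56, SE 0.08, adjusted p 6.14e-08), and its relative Id3 from 4.75, 4.56 and 4.99 FPKM to 4.09, 2.10 and 2.26 FPKM (log2 difference -0.63, SE 0.14, adjusted p 0.00865). Lyl1 fell by 0.63. Irf1, Nfkb2 and Bcl6 rose by 2.57, 0.83 and 0.32, and the call of Bcl6 was lost without LPS-treated replicate 1 or 3 or untreated replicate 3. Irf8, a repressor of Nfatc1, averaged 1.08 and 0.745 FPKM and was not called, and Tnfrsf11b, the decoy receptor osteoprotegerin, stayed at 0.120 FPKM or less in the mean. Of 25 receptors for RANKL, M-CSF and cytokines, 6 rose and 4 fell (24% and 16%, against 11.1% and 6.59% of all genes), which became 5 and 7 after rescaling to equal totals. Tnfrsf1b, the second TNF receptor, went from 20.1, 19.1 and 18.8 FPKM to 102, 72.3 and 96.5 FPKM (log2 difference 2.15, SE 0.10, adjusted p 2.08e-08), while Tnfrsf1a, the first, went from 27.6, 28.2 and 27.9 FPKM to 23.8, 24.5 and 23.1 FPKM (log2 difference -0.22, SE 0.03, adjusted p 5.87e-04). The death receptor gene Fas and the interleukin-10 receptor gene Il10ra rose by 1.64 and 1.53. Csf1r averaged 310.2 and 293 FPKM and was not called.

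**Figure D4:**
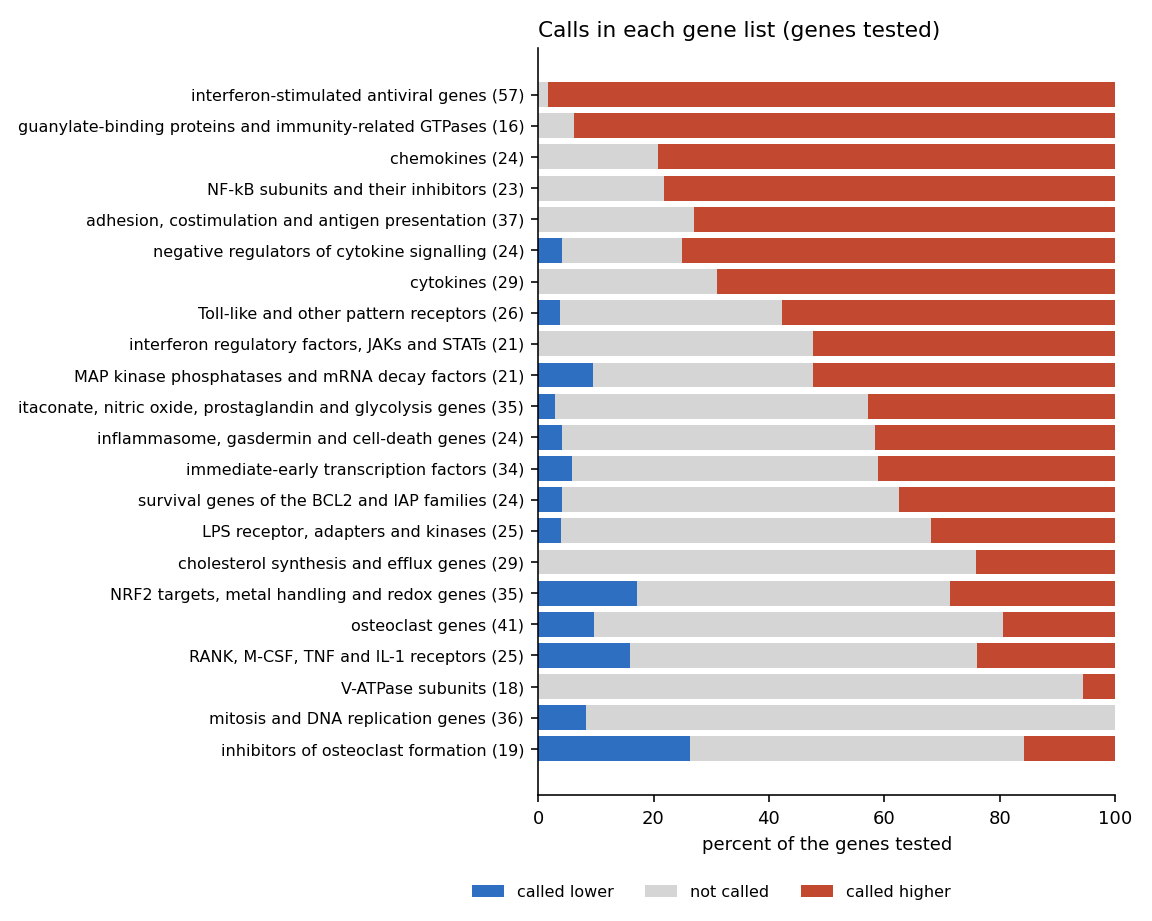
Percent of the genes tested (horizontal axis) that were called higher (red), called lower (blue) or not called (grey) in each of the 22 gene lists (rows, with the number tested), ordered by higher minus lower calls. Over all genes, 11.1% were called higher and 6.59% lower; the interferon-stimulated genes are nearly all red, the osteoclast genes mostly grey and the proton pump subunits nearly all grey.

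Inhibitors of cytokine signals rose along with what they inhibit. Of 24 negative regulators tested, some of them already named, 18 rose and 1 fell (75% and 4.17%), with a median of 0.99. The one that fell was Cd200r1, an inhibitory receptor of myeloid cells, from 5.71, 4.79 and 5.11 FPKM to 2.82, 2.58 and 2.60 FPKM (log2 difference -0.76, SE 0.07, adjusted p 9.66e-06). Cish, a further SOCS gene, was not called in osteoclasts and rose by 4.45 in macrophages (difference -4.33, SE 0.08, adjusted p 1.16e-11).

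Few genes fell by as much as others rose. Arl4c, a small GTPase, went from 4.11, 3.29 and 3.70 FPKM to 0.662, 0.744 and 0.678 FPKM (log2 difference -1.47, SE 0.07, adjusted p 3.88e-08), and Cd300lb, an activating receptor of myeloid cells, from 9.73, 7.95 and 8.90 FPKM to 3.0, 3.09 and 2.89 FPKM (log2 difference -1.30, SE 0.11, adjusted p 5.74e-06). Cxcr4, the receptor of CXCL12, went from 3.57, 4.55 and 3.77 FPKM to 1.26, 1.44 and 0.606 FPKM (log2 difference -1.26, SE 0.14, adjusted p 5.48e-05). P2ry6, a receptor for extracellular UDP, fell from 5.97, 4.47 and 4.24 FPKM to 1.96, 1.21 and 1.42 FPKM (log2 difference -1.22, SE 0.11, adjusted p 1.12e-05) and rose by 0.67 in macrophages. The opposite directions of P2ry6 were not called after rescaling to equal totals or after quantile normalization. The potassium channel gene Kcnk13, Lhfpl2 and the cyclin gene Ccnd1 were at -1.15, -1.13 and -1.12. S1pr1, a receptor for sphingosine-1-phosphate chosen after its values were seen, went from 1.80, 1.75 and 1.72 FPKM to 0.232, 0.256 and 0.342 FPKM (log2 difference -1.11, SE 0.06, adjusted p 5.36e-08). The same rule named short RNAs that rest on few reads. Mir378b had 19 reads over the 3 untreated libraries and 1 with LPS, Snord98 7 and 0, Mir1907 6 and 0, and the ribosomal RNA gene Gm26280 23 and 6. Mir1907 lies within Trps1 on the same strand, and whether these reads came from the small RNA or from a longer transcript was not tested. The calls of Snord98 and Mir1907 were lost when any 1 of several osteoclast libraries was left out.

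In added RNA, the response looked different from its fold changes. Among called genes whose groups did not overlap, the largest gains in mean FPKM were in Actb, Sqstm1 and Ccl9, at 299, 299 and 298 FPKM. These lay above the 213 FPKM of Cxcl10 and 186 FPKM of Acod1. Sqstm1, which encodes the autophagy receptor p62, went from 225, 224 and 221 FPKM to 538, 527 and 501 FPKM (log2 difference 1.22, SE 0.04, adjusted p 1.57e-09), with replicate 2 level with the others. Tnfaip2, a TNF-induced gene, went from 85, 94.1 and 88.3 FPKM to 269.7, 219 and 256 FPKM (log2 difference 1.46, SE 0.07, adjusted p 2.17e-08), and Marcksl1, a regulator of actin at the membrane, from 14.8, 12.6 and 16.8 FPKM to 176, 116 and 168 FPKM (log2 difference 3.28, SE 0.13, adjusted p 1.19e-08). Actin and tubulin genes named by rule had small differences on high levels. Actb, which encodes β-actin, went from 1936, 1877 and 1951 FPKM to 2313, 2235 and 2113 FPKM (log2 difference 0.21, SE 0.05, adjusted p 0.0119), Actg1 by 0.15 and the tubulin gene Tubb6 by 0.29. After quantile normalization the difference of Actb was -0.03 and was not called, and the call of Actg1 was lost on that scale, after rescaling to equal totals and without any 1 untreated osteoclast library (adjusted p 0.0917 to 0.496 in these). Fscn1, the actin bundler fascin, chosen after its values were seen, belongs with the steep rises, from 0.162, 0.255 and 0.195 FPKM to 19.9, 12.1 and 20.9 FPKM (log2 difference 3.92, SE 0.16, adjusted p 1.43e-08). Losses were smaller. Atp1b3, a subunit of the sodium pump, lost 51.1 FPKM, going from 332, 332 and 327 FPKM to 273, 297 and 268 FPKM. Lipa, the lysosomal acid lipase, went from 199, 194 and 199 FPKM to 153, 147 and 146 FPKM (log2 difference -0.41, SE 0.04, adjusted p 1.20e-05), and Txnip, an inhibitor of thioredoxin and glucose uptake, from 63.6, 68.6 and 65 FPKM to 35.7, 39.2 and 32.8 FPKM (log2 difference -0.86, SE 0.06, adjusted p 6.62e-07).

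Set against macrophages, most rises in osteoclasts were small in FPKM. Of the 242 genes that rose by at least 1, 238 also gained RNA in macrophages. The osteoclast gain was 6.74% of the macrophage gain at the median, with quartiles of 4.57% and 11.8%, and it was under 10% for 168 genes. The response was called different between the cell types for 6413 genes, 56.6% of those tested. This comparison depends on how libraries are scaled. The FPKM of all genes summed to 255852 to 261584 in untreated and 399796 to 408994 in LPS-treated macrophages, against 341998 to 348760 and 354564 to 377667 in osteoclasts. Rescaling to equal totals moved the median macrophage difference of all genes from 0.02 to -0.55, and the median difference between the cell types from -0.01 to 0.51. The 5 lowest differences among the genes named by rule were Il1b (-6.96), Il1a (-6.56), Il1rn (-5.25), Dusp2 (-5.24) and Iigp1 (-5.23). The 5 highest were Dusp6 (4.03), Irf2bp2 (3.51), Hhex (3.38), Sesn1 (3.27) and Cd300lb (3.19), genes that fell steeply in macrophages and less in osteoclasts. Hhex, a homeobox factor, went from 5.93, 5.83 and 5.77 FPKM to 4.24, 4.63 and 4.06 FPKM in osteoclasts (log2 difference -0.37, SE 0.05, adjusted p 3.62e-04), against -3.75 in macrophages.

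For 11 of the 242 genes the osteoclast gain exceeded that of macrophages, and these were named after their values were seen. Ptpre, a tyrosine phosphatase that osteoclasts express, went from 27.1, 25.7 and 27.4 FPKM to 68.4, 74.4 and 70.3 FPKM (log2 difference 1.38, SE 0.04, adjusted p 1.57e-09), against a macrophage difference of 0.46 (difference 0.92, SE 0.06, adjusted p 1.20e-07). Its 3 treated libraries lay closer together than those of Cxcl10. Efna2, an ephrin ligand, went from 2.52, 2.72 and 3.09 FPKM to 11.4, 11.9 and 10.4 FPKM (log2 difference 1.69, SE 0.11, adjusted p 3.40e-07). Synpo2, an actin-binding protein, went from 0.256, 0.284 and 0.228 FPKM to 2.10, 2.27 and 2.58 FPKM (log2 difference 1.40, SE 0.07, adjusted p 9.43e-08) and Fhl2, a co-regulator with LIM domains, from 0.857, 1.37 and 1.18 FPKM to 4.55, 5.27 and 3.64 FPKM (log2 difference 1.36, SE 0.13, adjusted p 1.50e-05). The others were Hbegf, H2-M2, Rasgrp1 (1.25), Fam83g (1.18) and the short RNAs Gm22362, Gm22270 and Mir7213.

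**Figure D5:**
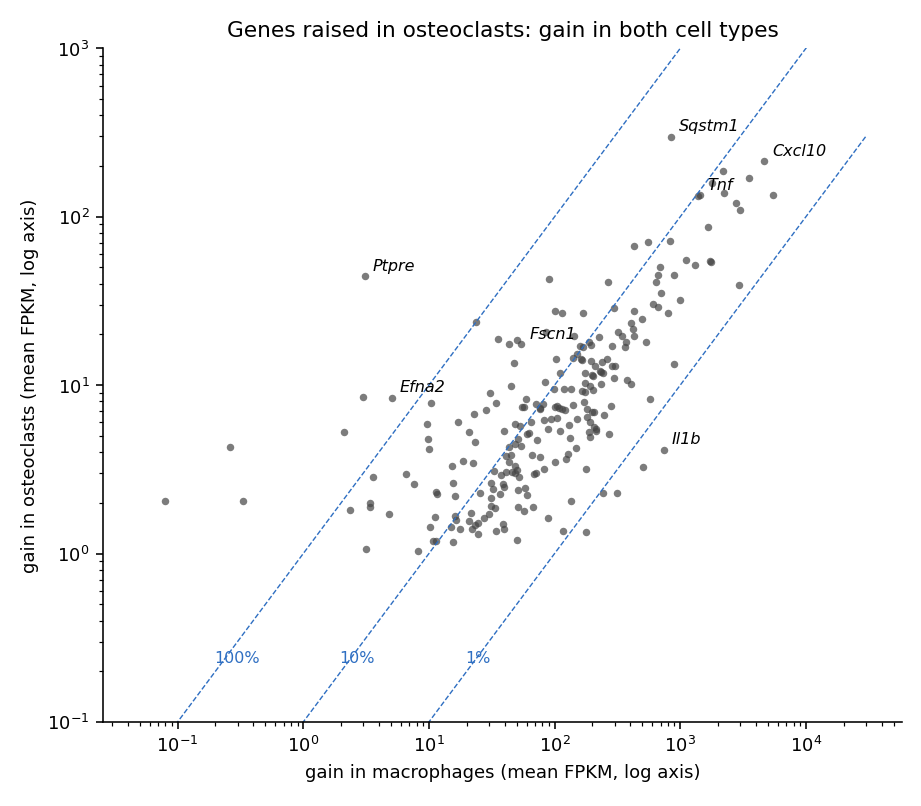
Gain in mean FPKM with LPS in osteoclasts (vertical log axis) against that in macrophages (horizontal log axis) for the 238 genes that rose by at least 1 in osteoclasts and gained RNA in macrophages; dashed lines mark osteoclast gains of 1%, 10% and 100% of the macrophage gain. Most points lie around the middle line, at a median of 6.74%, while Ptpre and Efna2 lie above the 100% line.

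Raised genes were neighbours on several chromosomes. With gaps of up to 500 kb, 38 of the 242 lay in 7 runs of at least 4 raised genes (GRCm38). The largest held 8 raised genes of 23 tested on chromosome 11, between 82951349 and 83664683, with the schlafen genes Slfn5, Slfn9, Slfn8 and Slfn2 and the chemokines Ccl5, Ccl3 and Ccl4. On chromosome 19, between 34290666 and 34650009, 7 of 9 genes tested rose by at least 1, among them Fas, Ch25h, which makes 25-hydroxycholesterol, and 5 Ifit genes. On chromosome 1, between 173468485 and 174031810, 7 of 16 did, all of the interferon-inducible p200 family or its relative Mndal. On chromosome 3, between 142493978 and 142638008, all 4 genes tested did, Gbp5, Gbp7, Gbp3 and Gbp2. Neighbouring copies within such families can share reads, so the division between them is uncertain. Each run begins and ends at a raised gene, so its share of raised genes is high by construction. Over all genes tested, 2.13% rose by at least 1, and how many runs genes spread at random would form was not tested.

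Overlap with other genes limits single values, because the sources used here do not give the strand setting of the counting. Annotated genes on the other strand overlap 50 of the genes named here or in the closing section, so reads from the pair cannot be told apart: Acp5, Adamts4, Aldoa, Bcl3, Bcl6, Ccnd1, Cd274, Cebpa, Ch25h, Cish, Csf1r, Cx3cr1, Cxcl10, Cxcl11, Dusp1, F13a1, Fam83g, Gas6, Gbp2, Gclm, Gpr84, Icam1, Ikbke, Ikbkg, Il1a, Il1b, Il27, Irak3, Irf1, Irf2bp2, Irf3, Irf7, Jun, Junb, Lyl1, Myd88, Nfkb2, Oasl1, Pim1, Plekhm1, Ptgs1, Ptpre, Slamf7, Slc7a2, Slfn5, Sqstm1, Tap1, Tnfaip2, Txnip and Usp18. Genes on the same strand overlap Actg1, Bcl2a1b, Fpr2, Gbp7, Gclm, Igtp, Irf9, Irgm2, Mir1907, P2rx7, Pkm and Scd2.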

How the data were processed

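The table holds FPKM, a normalized value per gene and library that the authors deposited with no counts beside it. Per the submitters' processing notes, fastp, STAR, featureCounts and DESeq2 were used with build mm10; versions, the annotation, the strand setting and the order of steps are not given in the sources used here. Per the labels' protocols, libraries were made from 1 µg of RNA with a NEBNext Ultra kit. Of 25854 genes above 0, 96.75% gave whole reads (tolerance 0.02 reads) when the FPKM were divided by 1 read's worth at the gene's exon length in GENCODE release 21 of the mouse annotation, of the same build, and the others did at another length, and these reads served for depths, bounds and 1 alternative. Depths were 15651770 to 20281456 reads in osteoclast libraries, and bounds against a floor of reads cover counting error only.

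Log2(FPKM + 1) of the 11335 genes with at least 1 FPKM in 3 or more libraries was fitted with limma 3.58.1 in R 4.3.3, with 4 group means over all 12 libraries, 8 residual degrees of freedom and a variance trend. The contrasts were LPS-treated minus untreated osteoclasts and the difference of that from macrophages, two-sided, adjusted by Benjamini-Hochberg over all genes and called at 0.05. On simulated data the same fit recovered 97% of 198 changed genes and 6.8% of its calls were false. Both percentages describe the simulated set only. Whether they hold for the calls reported here was not tested. Of the reported calls, 1019 higher and 728 lower ones were under 1 in size on the log2 scale. Alternatives were another pseudocount, no filter or a stricter one, rescaling to equal totals, quantile and median-ratio scaling, the osteoclast libraries alone, a replicate block, no variance trend, library weights, voom on recovered reads, and each library left out.

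Genes are named by a rule: among genes called with a mean of at least 1 FPKM in the higher group and no overlap between groups, the 20 highest and 15 lowest differences, the 10 largest gains and 5 largest losses in FPKM, and the 5 highest and 5 lowest differences between the cell types, and any gene of 22 lists. Some genes that the rule names are not reported here. The lists, markers and rules were chosen with earlier results of these data known, and genes named outside them are marked. Promoters are from RefSeq (GRCm38.p6). Python 3.11 with pandas and matplotlib made tables and figures.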

Additional observations from a re-analysis of the deposited data

Results flagged for a closer look

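The LPS response was tested for a difference between osteoclasts and macrophages with the interaction term of the same limma fit, and 27 genes are given here because it was called. They are the 5 highest and 5 lowest differences among the genes named by rule, and 17 other named genes called in opposite directions in the 2 cell types. Values are osteoclast minus macrophage log2 differences.

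The rise was smaller in osteoclasts for the interleukin-1 family genes Il1b (-6.96), Il1a (-6.56) and Il1rn (-5.25), the phosphatase gene Dusp2 (-5.24) and the GTPase gene Iigp1 (-5.23). The fall was smaller in osteoclasts for Dusp6 (4.03), Irf2bp2 (3.51), Hhex (3.38), Sesn1 (3.27) and Cd300lb (3.19).

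Genes higher in osteoclasts and lower in macrophages were Hilpda (1.40), Vegfa (1.25), Bcl6 (1.07), Insig1 (0.96), the osteoclast factor Nfatc1 (0.74), Pdgfb (0.60), Lima1 (1.07), Srf (0.97), Stk17b (2.18) and the short RNA Gm22270 (1.85). Genes lower in osteoclasts and higher in macrophages were P2ry6 (-1.89), the TNF receptor gene Tnfrsf1a (-1.09), the RANK gene Tnfrsf11a (-0.94), the sodium pump gene Atp1b3 (-0.87), Ndst2 (-1.32) and the short RNAs Snord98 (-2.76) and Mir1907 (-2.66), which had 7 and 6 reads over the untreated osteoclast libraries. After rescaling to equal totals 12 of these 17 were still called in opposite directions. Nfatc1, Pdgfb, P2ry6, Atp1b3 and Snord98 were not. After quantile normalization 13 were, all but Nfatc1, Pdgfb, P2ry6 and Atp1b3. With 3 samples a group, single samples were not screened for outlying values.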

How the results depend on the processing

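Each count was recomputed under 23 alternatives, except that the osteoclast libraries alone cannot give the difference between the cell types. The 2008 calls became 1641 without a filter on low values, 1394 with only the 6 osteoclast libraries in the fit, 2410 with voom on recovered reads, and 1432 to 2031 when each of the 12 libraries was left out in turn. Of the 2008, 1648 were also called after rescaling to equal totals, 1689 after quantile normalization and 1893 with voom on recovered reads. The genes raised by at least 1 rose from 242 to 419 with a pseudocount of 0.1 and to 448 with voom, and were 222 to 272 when libraries were left out. The genes lowered by at least 1 rose from 19 to 79 with that pseudocount, 101 with voom and 53 after rescaling to equal totals, and were 17 to 27 when libraries were left out. The genes called different between the cell types numbered 6413, became 8747 after rescaling to equal totals and 4018 when a mean of 5 FPKM was required, which leaves 6430 genes to test, and were 6049 to 6345 when libraries were left out. Of the 213 genes named in the report or in this section that were called, 189 stayed called in the same direction under every alternative that tested them. The others, which lost the call under 1 or more, were Actb, Actg1, Atp6v0e, Aurka, B2m, Bcl6, Car2, Cd80, Cdt1, Gm22270, Gm22362, H2-K1, Id3, Mir1907, Mir7213, Nfatc1, Pdgfb, Pfkl, Sesn1, Snord98, Tfrc, Tnfrsf11a, Tpx2 and Trac. Named genes that were not called but were called under 1 or more alternatives numbered 17: Bst2, C1qa, C1qb, C1qc, Cd86, Cish, Csf1r, Cx3cr1, Gas6, Ifnar1, Ikbkg, Irf8, Mki67, Mrc1, Ocstamp, Tgfb1 and Tnfrsf11b. Among the former, Actb changed sign, to -0.031 after quantile normalization (adjusted p 0.572). For genes that were not called, the sign was not compared. The labels do not say whether the replicate numbers pair the samples. Deviations of same-numbered untreated and LPS-treated osteoclast libraries correlated at 0.07, 0.08 and 0.03, against -0.10 to 0.04 for the other pairs. Each same-numbered value was the highest for its untreated library, but all are small, and 3 libraries a group cannot decide the question. With the replicate block, 1930 genes were called, 242 were raised and 20 lowered by at least 1, and 6422 differed between the cell types. With 3 libraries a group, small differences are near the limit of what can be called, and 1 read on a 1-kb transcript was worth 0.0505 to 0.0649 FPKM.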

Other observations

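Genes outside the lists rose as well, and those named here were chosen after their values were seen. Enzymes that act on the extracellular matrix were among them. Adamts4, an aggrecan-cleaving protease, went from 1.46, 1.06 and 1.39 FPKM in untreated to 10.8, 9.06 and 11.1 FPKM in LPS-treated osteoclasts (log2 difference 2.29, SE 0.08, adjusted p 3.28e-09). Mmp13, a collagenase, went from 0.243, 0.266 and 0.264 FPKM to 3.12, 1.82 and 2.71 FPKM (log2 difference 1.48, SE 0.11, adjusted p 1.78e-06), against a difference of 5.42 in macrophages. In both the treated libraries lay above the untreated ones. The complement gene C3 rose by 2.71, the receptor gene Gpr84 for medium-chain fatty acids by 1.70, and the adenosine receptor gene Adora2a by 1.92.

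LPS moved 184 genes in opposite directions in the 2 cell types, with each response and the difference between them called. They are 90 genes that rose in osteoclasts and 94 that fell there, out of 1799 called in both. Stk17b, a kinase, went from 25.5, 25.3 and 26 FPKM to 35.5, 33.1 and 31.9 FPKM in osteoclasts (log2 difference 0.37, SE 0.06, adjusted p 0.00121) and fell by 1.81 on the log2 scale in macrophages. Lima1, an actin-binding protein, and Srf, a factor that controls actin genes, rose by 0.38 and 0.40 and fell in macrophages by 0.69 and 0.57. Ndst2, an enzyme of heparin synthesis, was the other way round, from 17.5, 18.3 and 17.1 FPKM to 10.7, 12.7 and 12.1 FPKM in osteoclasts (log2 difference -0.54, SE 0.06, adjusted p 6.39e-05) with a rise of 0.78 in macrophages. The osteoclast difference was under 0.5 in size for 172 of the 184. After rescaling to equal totals 61 of the 184 were still called in the same opposite directions, and 108 were after quantile normalization. Stk17b, Lima1, Srf and Ndst2 were called in opposite directions on both scales.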
